A study of Mus musculus with 6 samples.

Results

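The meiotic entry and chromosome axis genes examined here were Stra8, Meioc, Sycp1, Sycp2, Sycp3, Spo11, Rec8, Smc1b and Hormad1. They were picked by gene symbol, with no threshold on measured values but with earlier results of these data known, and are 9 of the 32285 genes in the count table, each with 1 row. The data were RNA-seq gene counts of germline stem (GS) cells, cultured mouse spermatogonia that can rebuild spermatogenesis after transplantation. There were 3 libraries titled Space, from GS cells kept frozen for 6 months on the International Space Station (ISS), and 3 titled Ground, from GS cells kept frozen for 6 months on Earth. All 6 libraries shared the DBA/2 strain and the genotype DBA/Tg14(act-EGFP-OsbY01), an EGFP reporter transgene, and none was from fresh cells. The GS cells were started from testes of newborn pups and grown on mouse embryonic fibroblasts. The study states that RNA was taken on the day after thawing, before any passage. It speaks of 3 lines per group, and the labels do not say which libraries share a line, so that p-values measure only the spread between these libraries. The treatment label of each library states the opposite of its title. Groups follow the titles, as the column names of the count table do, and the sign of every Space to Ground difference turns if the treatment label is right.

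In the testis, retinoic acid drives spermatogonia to differentiate and later to enter meiosis. STRA8 is induced by retinoic acid and acts with MEIOSIN at the promoters of meiotic genes, and MEIOC acts with YTHDC2 to lead cells into an extended meiotic prophase. In prophase each chromosome folds along a protein axis built on cohesin rings with the meiotic subunits REC8 and SMC1B. SYCP2, SYCP3 and HORMAD1 sit on this axis, SYCP1 forms the transverse filaments that zip homologs together, and SPO11 makes the DNA breaks that start recombination. Many of these genes are silenced outside the germline by a Polycomb complex that is brought to DNA by MGA with MAX, which bind E-boxes, and by E2F6. In spermatogonia the genes can be transcribed before meiosis starts.

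RefSeq promoter windows were found for 8 of the 9 genes (GRCm38.p6), all but Spo11. Hormad1 had 2 windows, beginning at bases 95559427 and 95559429, with the same matches, and only the first is shown. Each of the 8 genes is counted once below, while the shares of all windows count every window. Of the 250 bases before the RefSeq start, 5 windows are shown because their genes carry the results below: Hormad1 and Sycp1 were the genes whose groups did not overlap, Rec8 varied most for its depth, Stra8 is the retinoic acid target, and the Sycp3 window holds the same motif types as that of Hormad1. Capitals mark matches, on either strand, to the E-box CACGTG, the E2F core GCGGGA and the retinoic acid receptor half-site AGGTCA.
Stra8 (chr6:34920698-34920947, plus strand): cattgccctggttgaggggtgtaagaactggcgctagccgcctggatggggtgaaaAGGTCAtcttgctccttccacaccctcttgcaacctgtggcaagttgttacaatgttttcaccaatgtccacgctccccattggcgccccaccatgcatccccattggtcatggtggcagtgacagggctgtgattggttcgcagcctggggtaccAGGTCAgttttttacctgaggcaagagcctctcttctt
Hormad1 (chr3:95559427-95559676, plus strand): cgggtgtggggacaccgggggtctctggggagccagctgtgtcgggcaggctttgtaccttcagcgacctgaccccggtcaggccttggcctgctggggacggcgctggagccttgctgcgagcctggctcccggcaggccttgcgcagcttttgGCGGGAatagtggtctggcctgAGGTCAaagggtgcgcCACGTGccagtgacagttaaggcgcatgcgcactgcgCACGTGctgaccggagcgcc
Sycp3 (chr10:88459337-88459586, plus strand): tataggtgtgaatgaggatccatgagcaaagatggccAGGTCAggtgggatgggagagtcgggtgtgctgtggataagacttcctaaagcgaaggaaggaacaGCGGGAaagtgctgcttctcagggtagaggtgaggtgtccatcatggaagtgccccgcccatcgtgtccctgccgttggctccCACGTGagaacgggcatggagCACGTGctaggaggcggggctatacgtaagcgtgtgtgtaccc
Sycp1 (chr3:102936101-102936350, minus strand): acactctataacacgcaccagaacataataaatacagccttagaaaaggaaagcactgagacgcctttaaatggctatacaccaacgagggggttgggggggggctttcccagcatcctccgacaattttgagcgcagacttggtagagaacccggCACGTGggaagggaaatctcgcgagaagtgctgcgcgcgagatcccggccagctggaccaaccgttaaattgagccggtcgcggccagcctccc
Rec8 (chr14:55617916-55618165, plus strand): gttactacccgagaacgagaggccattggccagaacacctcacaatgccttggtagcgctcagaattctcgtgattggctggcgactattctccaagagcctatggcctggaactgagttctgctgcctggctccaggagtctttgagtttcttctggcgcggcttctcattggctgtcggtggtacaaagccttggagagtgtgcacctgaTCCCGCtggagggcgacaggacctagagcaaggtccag

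CACGTG was in the windows of 3 of the 8 genes (Hormad1, Sycp3 and Sycp1) and in 6.02% of all 32851 RefSeq promoter windows of the same length. Hormad1 and Sycp3 each held 2 copies. GCGGGA was in 5 of the 8 (Hormad1, Sycp3, Meioc, Rec8 and Smc1b), against 16.9% of all windows. Both together were in Hormad1 and Sycp3, and in 1.45% of all windows. AGGTCA was in Stra8, with 2 copies, Hormad1 and Sycp3, against 14% of all windows. CNCCTCAG, known from promoters bound by STRA8 and MEIOSIN, was in none of the 8 and in 6.42% of all windows. No match overlapped another. These are matches of letters, not sites of binding. Some RefSeq starts differ from the GENCODE gene starts given below. The Stra8 and Meioc windows lie wholly inside their GENCODE genes. The Rec8, Sycp3, Sycp2 and Smc1b windows run past the first base of theirs.

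The libraries held 19015985 to 24110916 counts, and between 19528 and 20316 genes had at least 1 count. Levels are given as CPM, counts scaled to library size after TMM normalization, in which 3 counts correspond to 0.12 to 0.1599 CPM. The libraries did not fall together by group. Over all tested genes, Pearson's r of log2 CPM was 0.9957 for Ground-1 with Space-3, 0.9936 for Ground-3 with Space-1 and 0.9936 for Ground-2 with Space-2, and between 0.9835 and 0.9914 for the other 12 pairs of libraries. None was a copy of another, since counts differed beyond sampling noise in every pair, least in Ground-1 with Space-3 (median chi-square 1.55 times its expectation). Mitochondrial transcripts took 11.51% of counts in Ground-2 and 7.124% in Space-2, against 2.508 to 5.695% in the other 4. The mean log2 CPM of 25 feeder fibroblast markers was 3.164 in Space-1 and 3.866 to 4.175 in the others.

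All 9 genes were expressed in GS cells, and all 9 passed the filter on low counts. Levels of different genes are compared as CPM per kb of annotated exon, averaged over the 6 libraries. Smc1b was highest with 63.13 CPM per kb, above 95.8% of the 15104 tested genes. Stra8 followed with 54.08 (above 94.5%) and Sycp1 with 36.68 (above 90.4%). Sycp3 had 23.98, Rec8 22.56 and Sycp2 19.54 CPM per kb. Hormad1 had 13.52, Meioc 11.96 and Spo11 1.337, the last above only 27.3% of tested genes. Smc1b, Stra8 and Sycp1 were separated from each other and from Sycp3 in 6 of 6 libraries. Sycp3 and Rec8 did not differ beyond their spread, with Sycp3 above Rec8 in 3 of 6 libraries, nor did Rec8 and Sycp2, in this order in 4 of 6. Hormad1 was above Meioc in 5 of 6 libraries with overlapping ranges. Meioc was above Spo11 in 6 of 6, by 8.944-fold in the mean. With the length of the longest transcript in place of all exons, Rec8 had 30.31 CPM per kb and stood above Sycp3. The place of Sycp3 in this order is uncertain, because 52.2% of its exon bases overlap exons of another gene, as described below.

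**Figure D1:**
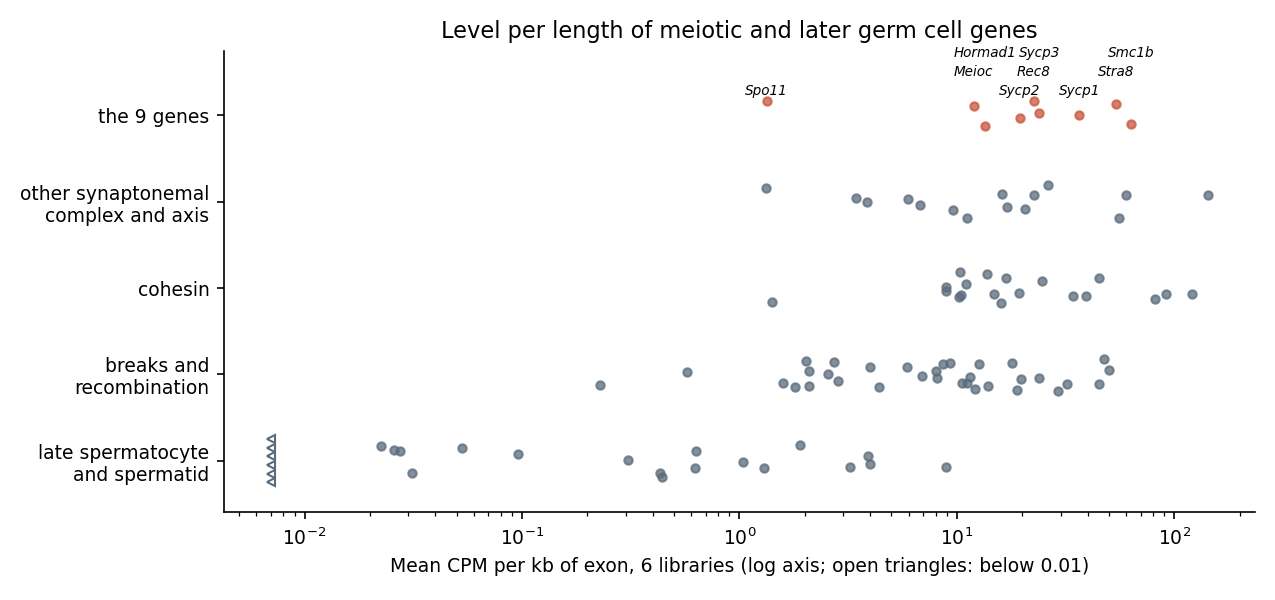
Mean level per length over the 6 libraries (CPM per kb of exon, log axis), 1 point per gene, for the 9 genes and 4 lists of other genes; open triangles are genes below 0.01. Of the 9 genes all but Spo11 (1.337) lay between 11.96 and 63.13, while the late spermatocyte and spermatid genes reached at most 8.941.

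Stra8 (ENSMUSG00000029848, GRCm38 chromosome 6, 34920163 to 34939344, plus strand, 10 exons), the retinoic acid target that opens meiosis, had 103, 104 and 87.99 CPM in the Ground libraries, in order of replicate number. In the Space libraries it had 92.16, 97.36 and 100.5 CPM, in the same order. The Space values lay within the Ground range, and the lowest values were in Ground-3 and Space-1. Ground averaged 98.34 ± 8.98 CPM and Space 96.66 ± 4.2 (SD, n = 3). The log2 fold change, Space over Ground, was -0.025 (SE 0.079). Meioc (ENSMUSG00000051455, chromosome 11, 102663716 to 102682237, plus strand), whose protein keeps the meiotic program running, had 55.86, 51.54 and 56.99 CPM in Ground and 62.63, 47.05 and 57.19 in Space. Space-1 and Space-2 were its highest and lowest libraries, so the whole range lay within 1 group. The means were 54.8 ± 2.88 and 55.63 ± 7.91 CPM (log2 fold change 0.023, SE 0.108).

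All 3 synaptonemal complex genes had lower means in Space, and none passed the test given below. Sycp1 (ENSMUSG00000027855, chromosome 3, 102818499 to 102936100, minus strand, 33 exons), the transverse filament gene, had 134.8, 132.5 and 131.8 CPM in Ground and 130, 126.4 and 127 in Space. Every Space library was below every Ground library, although highest and lowest differed by only 1.066-fold. The means were 133.0 ± 1.58 and 127.8 ± 1.91 CPM (SD, n = 3; log2 fold change -0.058, SE 0.049). Sycp2 (ENSMUSG00000060445, chromosome 2, 178345293 to 178407685, minus strand, 44 exons), a lateral element gene, had 124.2, 110.9 and 124.8 CPM in Ground and 115.8, 103.9 and 120.1 in Space. Ground-2 and Space-2 were its lowest libraries, and the groups overlapped (log2 fold change -0.083, SE 0.077). Sycp3 (ENSMUSG00000020059, chromosome 10, 88459569 to 88473236, plus strand, 8 exons), the other lateral element gene, whose protein marks spermatocytes in stained testis, had 32.69, 32.32 and 29.99 CPM in Ground and 29.36, 25.42 and 32.08 in Space. The groups overlapped through Space-3, and Space-2 was lowest (log2 fold change -0.128, SE 0.103). The Sycp3 counts are uncertain, because 52.2% of its exon bases overlap exons of Chpt1 on the opposite strand (mean 21.36 CPM). The study's methods name a stranded library kit, but the labels name a different kit. No source used here says whether reads were counted by strand. No other of the 9 genes overlapped exons of another annotated gene.

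Hormad1 (ENSMUSG00000028109, chromosome 3, 95559677 to 95587671, plus strand, 16 exons), which marks axes that have not yet paired, had 23.67, 24.6 and 24.94 CPM in Ground and 22.98, 21.26 and 22.84 in Space. As for Sycp1, all 3 Space libraries lay below all 3 Ground libraries, with Space-2 lowest. The means were 24.4 ± 0.659 and 22.36 ± 0.953 CPM (SD, n = 3; log2 fold change -0.125, SE 0.083). Spo11 (ENSMUSG00000005883, chromosome 2, 172977700 to 172993576, plus strand, 8 exons), the break-making enzyme, was the weakest of the 9, with 76 to 173 counts per library. It had 6.916, 5.697 and 4.165 CPM in Ground and 3.13, 4.636 and 6.919 in Space. Ground-1 and Space-3 were highest and Space-1 lowest. The 95% exact Poisson interval for counting error alone was 5.91 to 8.045 CPM in Ground-1 and 5.926 to 8.03 in Space-3, apart from 2.466 to 3.917 in Space-1. The groups overlapped (5.593 ± 1.38 and 4.895 ± 1.91 CPM; log2 fold change -0.191, SE 0.316).

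The 2 meiotic cohesin genes had near-equal means in both groups, and Rec8 had the widest spread of the 9 relative to counting error. Rec8 (ENSMUSG00000002324, chromosome 14, 55618037 to 55625395, plus strand, 20 exons), the meiotic kleisin that closes the cohesin ring, had 52.94, 61.23 and 82.59 CPM in Ground and 83.64, 60.64 and 56.19 in Space. Ground-3 and Space-1 stood above the other 4 libraries, and each group held 1 of the high libraries. The group means were nearly equal at 65.59 ± 15.3 and 66.82 ± 14.7 CPM (log2 fold change 0.028, SE 0.195). Smc1b (ENSMUSG00000022432, chromosome 15, 85064689 to 85131964, minus strand, 25 exons), the meiotic SMC subunit, had 240.9, 288.8 and 248.2 CPM in Ground and 244.5, 273.2 and 237.4 in Space. Its highest libraries were Ground-2 and Space-2, which were also the 2 with the largest mitochondrial share, and the part of that share in the result was not tested. The groups overlapped (259.3 ± 25.8 and 251.7 ± 19 CPM; log2 fold change -0.043, SE 0.087).

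**Figure D2:**
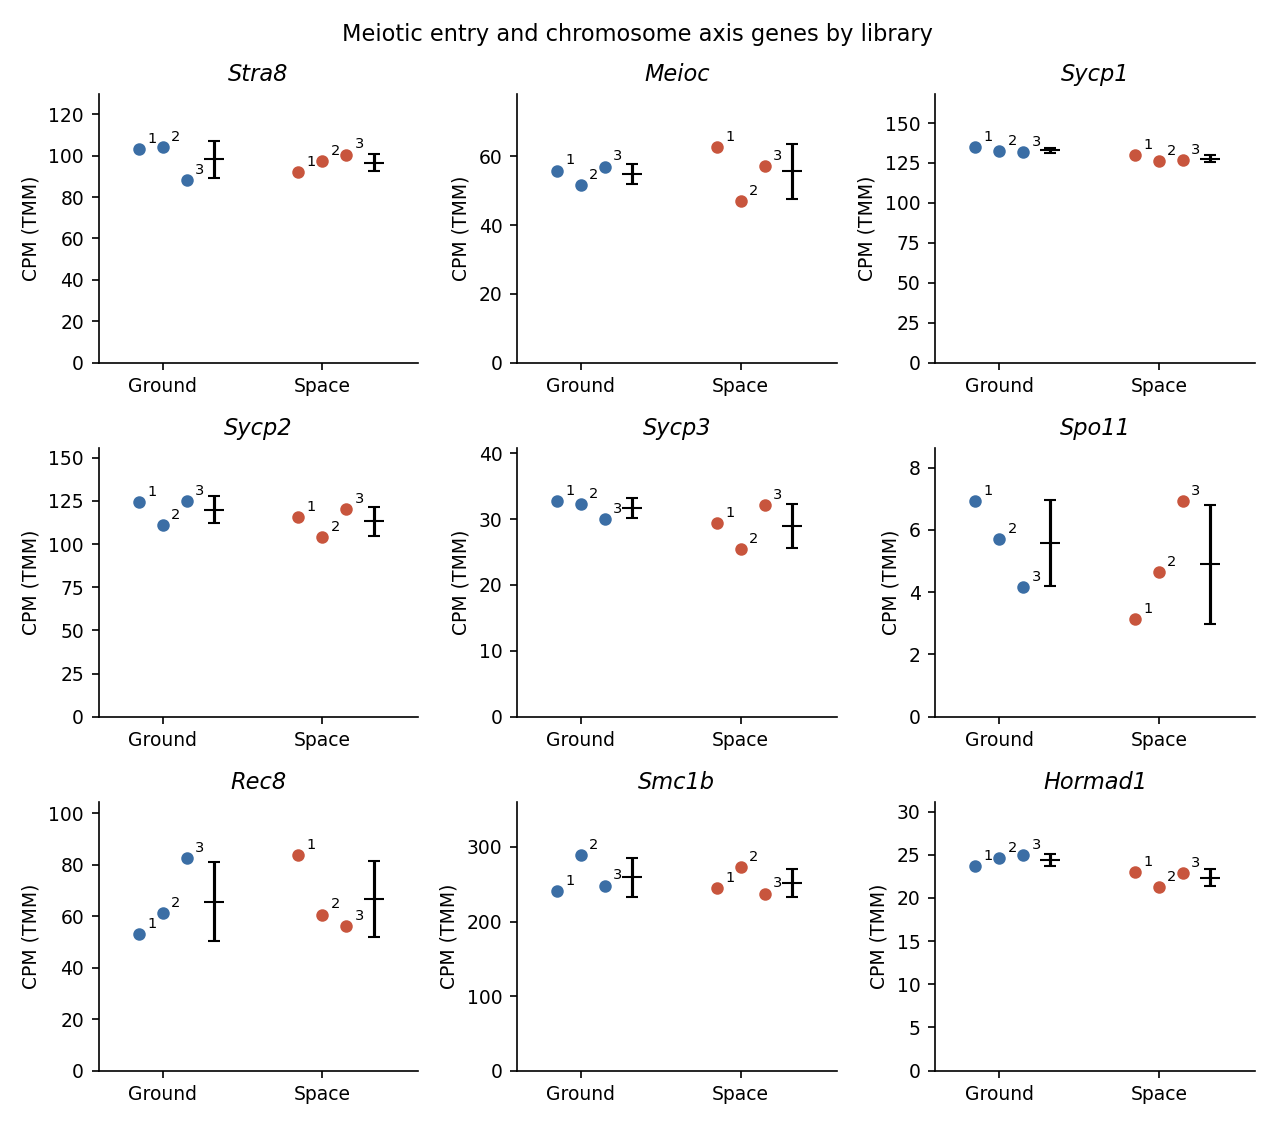
CPM after TMM scaling of each of the 9 genes, with 1 point per library (numbers are replicate numbers) and the mean ± SD of each group of 3 beside the points. Groups do not overlap for Sycp1 and Hormad1, and Rec8 is highest in Ground-3 (82.59) and Space-1 (83.64).

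The 9 genes did not all vary between libraries in the same way. The coefficient of variation over the 6 libraries was 20.3% for Rec8, 7.63 times the 2.66% that counting error gives, and 29.3% for Spo11, 3.03 times its 9.68%. It was 8.09% for Smc1b, 6.08 times counting error. At the other end Sycp1 varied by 2.5% and Hormad1 by 5.73%, which is 1.34 and 1.3 times counting error. Among all tested genes, the SD of log2 CPM of Spo11 was at percentile 86.7 and that of Rec8 at 73.2, while that of Sycp1 was at 2.79. In order of level, Ground-3 and Space-1 were the 2 highest libraries for Rec8 and the 2 lowest for Stra8 and Spo11. Ground-1 and Space-3 were the 2 lowest for Rec8 and the 2 highest for Spo11. Relative to its own mean on the log2 scale, Rec8 was 0.34 and 0.36 higher in Ground-3 and Space-1, where Spo11 was -0.27 and -0.67. Space-1 also had the lowest feeder marker level, whose part in these values was not tested. The counts come from whole cultures, in which fewer cells of a kind and less RNA per cell cannot be told apart.

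**Figure D3:**
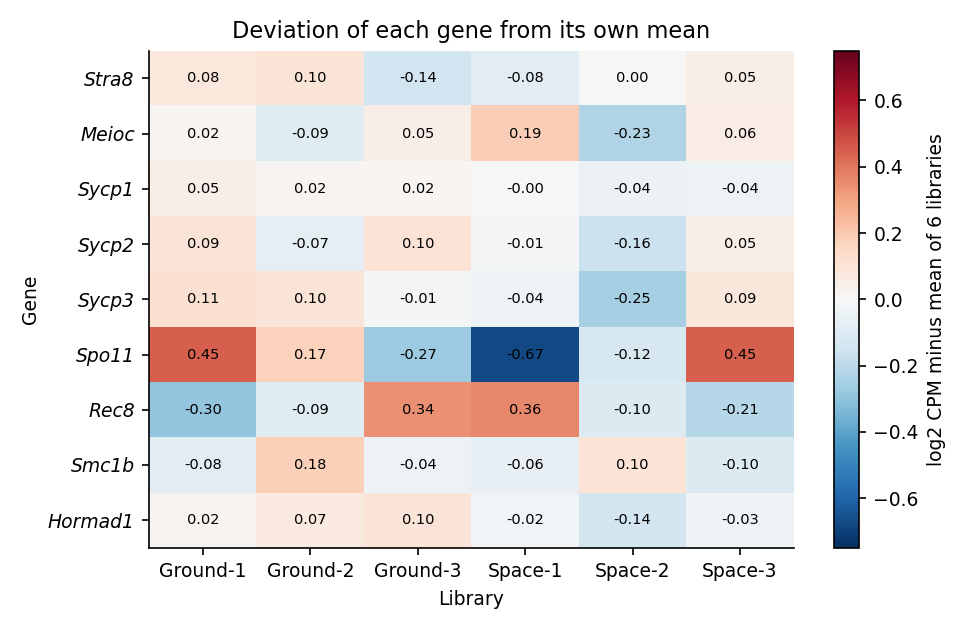
Each cell gives the log2 CPM of a gene in a library minus the mean of that gene over the 6 libraries. Rec8 and Spo11 have opposite signs in 5 of the 6 libraries, and the Sycp1 row stays within 0.05 of 0.

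For cohesin, the meiotic subunits were set against their mitotic counterparts as ratios of CPM per kb. Rec8 to Rad21, the mitotic kleisin, was 0.1566, 0.1666 and 0.2346 in Ground and 0.2302, 0.161 and 0.1685 in Space. Rec8 thus stayed well under Rad21 in all 6 libraries, and the groups had 0.1859 ± 0.0425 and 0.1865 ± 0.038. Smc1b to Smc1a was 2.489, 2.853 and 2.406 in Ground and 2.423, 2.801 and 2.408 in Space, so the meiotic gene was above the mitotic one in every library. Stag3, the meiotic STAG subunit, was at 3.528, 3.854 and 3.403 times the sum of Stag1 and Stag2 in Ground and at 3.212, 3.747 and 3.536 times in Space. The size of these ratios depends on the exon lengths used. In mean CPM without length, Smc1b had 255.5 beside 142.1 for Smc1a, and Rec8 66.21 beside 512.2 for Rad21. Stag3 had 524.3 CPM, beside 199.2 for Stag1 and 73.76 for Stag2. The differences of Space minus Ground were 0.00062, -0.0391 and -0.0964 for the 3 ratios (2-sided exact permutation p = 1, 0.7 and 0.8, adjusted over the 3 ratios 1 for each), where 3 against 3 libraries cannot give a p below 0.1.

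**Figure D4:**
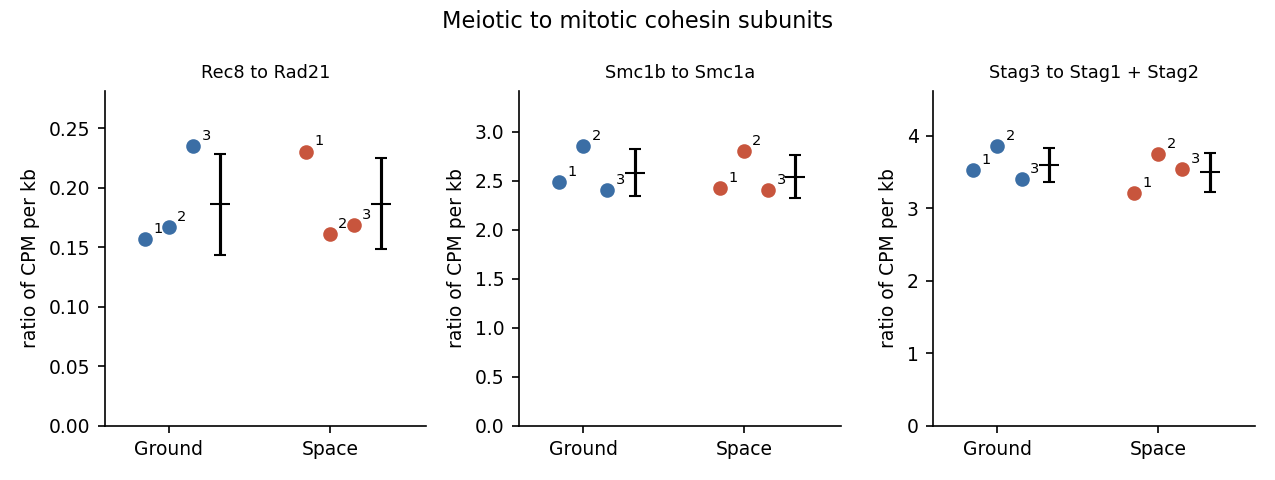
Ratios of CPM per kb of exon of meiotic to mitotic cohesin subunits, with 1 point per library (numbers are replicate numbers) and the mean ± SD of 3 libraries. The Rec8 to Rad21 ratio stays at or below 0.2346 and the other ratios at or above 2.406.

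To ask whether storage on the ISS changed these genes, Space and Ground were compared in the test of all 15104 genes. None of the 9 passed edgeR's quasi-likelihood test (Benjamini-Hochberg adjusted p = 0.9999 for each), where 0.00% of all tested genes passed. At an unadjusted p under 0.05 there were 0 of the 9, against 0.609% of tested genes (0.159% higher and 0.450% lower in Space). DESeq2 and limma-voom also gave 0 of the 9 at either threshold. The 0.609% is far under the share of 0.05 that evenly spread p-values would give, so the test gave few small p-values in these data. Whether this came from the likeness of libraries across the groups was not tested. The smallest unadjusted p was 0.17, for Hormad1. Fold changes were lower in Space for 7 and higher for 2 (Rec8 and Meioc), from -0.191 for Spo11 to 0.028 for Rec8 on the log2 scale. Their median was -0.058, beside -0.002 for all tested genes, of which 51.3% were lower in Space. With total counts as scaling, which moved the median of all genes to 0.033, Stra8 also changed sign and 6 of the 9 were lower.

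The groups did not overlap for 2 of the 9 genes, Sycp1 and Hormad1, both lower in Space, against 3.59% of tested genes in both directions (1.98% lower and 1.61% higher). The same 2 were apart with RLE scaling, and 0 of the 9 with total counts. For both genes the nearest libraries had overlapping 95% Poisson intervals for counting error. These were 127.2 to 136.6 CPM in Ground-3 and 125.5 to 134.6 in Space-1 for Sycp1. For Hormad1 they were 21.78 to 25.69 in Ground-1 and 21.11 to 24.97 in Space-1. The 95% interval of the log2 fold change was -0.171 to 0.056 for Sycp1, a level in Space of 0.888 to 1.04 times that in Ground. It was -0.318 to 0.067 for Hormad1, or 0.802 to 1.05 times. Smc1b (0.844 to 1.12 times), Stra8 (0.867 to 1.12), Sycp2 (0.835 to 1.07), Sycp3 (0.776 to 1.08) and Meioc (0.854 to 1.21) had intervals narrower than those of Rec8 and Spo11. Rec8 (0.745 to 1.4 times) and Spo11 (0.527 to 1.46) had the widest.

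**Figure D5:**
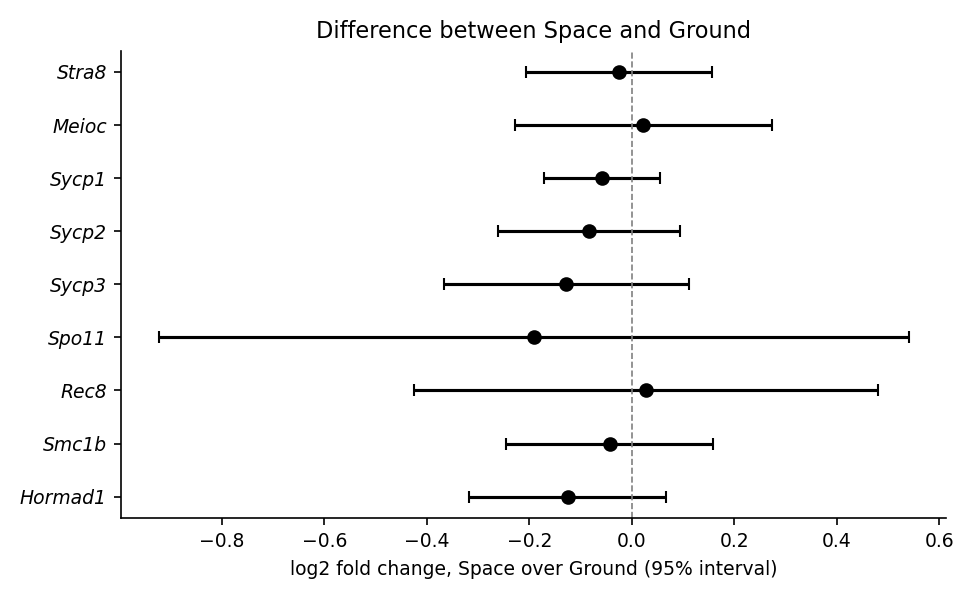
Log2 fold change of Space over Ground for the 9 genes (points) with 95% intervals from edgeR's fit (bars). All 9 intervals include 0, and those of Rec8 and Spo11 are the widest.

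The genes that work with these 9 were described in 5 lists of 114 genes, of which 112 were in the table and 109 passed the filter. None passed the test (edgeR adjusted p = 0.9999 for the smallest), 0 had an unadjusted p under 0.05, and 42 were higher and 67 lower in Space. The groups did not overlap for 2 of the 109, against 3.59% of all tested genes. These were Aldh1a3, a retinoic acid synthesis enzyme (Ground 1.475 ± 0.138 and Space 1.71 ± 0.0964 CPM, SD, n = 3), and Syce1, a central element gene (79.07 ± 0.96 and 83.53 ± 0.356 CPM), both higher in Space, unlike Sycp1 and Hormad1. Among genes of the retinoic acid response and meiotic entry, 7 were higher and 13 lower in Space, with a median log2 fold change of -0.027. Dazl, an RNA-binding factor that makes germ cells competent for meiosis, was highest (228.5 CPM per kb), followed by Crabp1, a retinoic acid binding protein (97.43). Gm4969, the gene of MEIOSIN, was named after its values were seen, and had 28.16, 21.08 and 25.03 CPM in Ground and 26.31, 21.58 and 33.68 in Space. So the partner of STRA8 was expressed in all 6 libraries, at 5.532 CPM per kb. Among repressors of meiotic genes 13 were higher and 9 lower (median 0.012). Dmrt1, which holds back meiosis in spermatogonia, was highest (180.4 CPM per kb), and Uhrf1, which guides maintenance DNA methylation, followed (163.4). Dmrt1 had 358.4, 467 and 581.6 CPM in Ground and 589.4, 452.4 and 359.7 in Space, highest in Ground-3 and Space-1 as Rec8 was.

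Cohesin subunits and loaders had 12 genes higher and 7 lower (median log2 fold change 0.013), and were led by Rad21 (121 CPM per kb) and Stag3 (91.46). Smc3, which pairs with either SMC1 protein, had 81.85 CPM per kb, Smc1a 24.63, Stag1 16.91 and Stag2 8.915. The other synaptonemal complex and axis genes had 3 higher and 12 lower (median -0.052). They were led by Skp1a, a ubiquitin ligase subunit used in many cells (142.9 CPM per kb), and Syce2, a central element gene (60.07). Genes of break formation and recombination had 7 higher and 26 lower (median -0.029), and Zcwpw1, a reader of the histone marks that PRDM9 makes, and Prr19, a crossover factor, were highest (50.28 and 47.59 CPM per kb).

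Per kb, markers of later stages were absent or below each of the 9 genes other than Spo11. Of 24 late spermatocyte and spermatid markers 11 passed the filter, and Tnp2, Prm2 and Catsper1 had 0 counts in all 6 libraries. The highest were Hspa2, a heat shock protein of spermatocytes (8.941 CPM per kb), and Tnp1, a transition protein of spermatids (3.989). Per kb both were above Spo11 (1.337). In mean CPM without length, Hspa2 (23.64) was above Spo11 (5.244), but Tnp1 (1.743) was below it. Without scaling by length, the 24 markers summed to 63.48 to 73.96 CPM in Ground and 59.26 to 67.19 in Space. The 9 genes summed to 775.1 to 811.6 CPM and 759.9 to 784.2. Of 20 genes of undifferentiated spermatogonia 19 passed the filter, and the list summed to 2266 to 2879 CPM in Ground and 2333 to 2907 in Space. Passing the filter does not itself tell cell types apart, since 9 of 12 Sertoli cell markers passed too. Ddx4, a germ cell helicase, and Lin28a were highest (133.1 and 66.28 CPM per kb). The sum was lowest in Ground-3 and Space-1, and some single markers varied more than it. Bcl6b had 363.8, 222.3 and 59.05 CPM in Ground and 57.57, 217.6 and 371.3 in Space. Pou5f1 ran the other way, highest in Ground-3 (157.5) and Space-1 (140.6), while Sall4 stayed between 167.2 and 188.5. All 12 markers of differentiating spermatogonia passed (2128 to 2264 and 2116 to 2292 CPM), led by Uchl1 and Sohlh2. Uchl1 alone gave a mean of 672 CPM of this sum, and is also known as a marker of undifferentiated spermatogonia. Sertoli cell markers summed to 52.87 to 63.44 and 52.79 to 62.31 CPM, led by Dmrt3 and Wt1, and Fshr was at 0 counts. None of these 4 lists had a gene past the test or at an unadjusted p under 0.05.

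Feeder fibroblast markers had the median farthest from 0 among the lists. All 25 passed the filter and 24 were lower in Space, with a median log2 fold change of -0.291. Of the 25, 4 had an unadjusted p under 0.05, against 0.609% of all tested genes, and 0 passed the test (edgeR adjusted p = 0.9999 for the smallest). Their summed level was 1241 to 1260 CPM in Ground and 1271, 1128 and 958.6 in Space-2, Space-3 and Space-1, led by Fn1 and Col5a1. The groups did not overlap for 2 of the 25, Col1a2 and Ccl2, both lower in Space, against 1.98% of all tested genes lower. With the mean log2 CPM of the feeder markers as a covariate, the log2 fold change was -0.074 for Sycp1 and -0.168 for Hormad1 (edgeR adjusted p = 0.9679 for both), beside -0.058 and -0.125 without it.

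As a description over 6 libraries that resemble each other in pairs across groups, the genes most like each of the 9 were sought by Pearson's r of log2 CPM among all tested genes. For Rec8 they were Ptch1 (r = 0.9997), the Hedgehog receptor, and Rab3a (0.9984). For Spo11 they were Adam15 (0.9965) and Gm10772 (0.9962), for Smc1b Sh3kbp1 (0.9978) and Tgm2 (0.9977), and for Stra8 Areg (0.9959) and Aggf1 (0.9929). For Meioc they were Cul3 (0.9925) and Zfp746 (0.9856), for Sycp2 Selenos (0.9942) and Ccl25 (0.9914), and for Sycp3 Srxn1 (0.9825) and Kti12 (0.979). Hormad1 was most like Emc9 (0.9874) and Leo1 (0.9821), and Sycp1 like E430018J23Rik (0.9741) and Prg4 (0.9734). No gene of the 9 was among the closest of another. Some of these matches were weakly expressed: Prg4 had a mean of 0.7509 CPM, Areg 0.7519, E430018J23Rik 1.248 and Gm10772 1.351. Picking the closest of all tested genes over only 6 libraries gives a high r by selection alone, so no shared regulation can be read from these values.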

How the data were processed

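The authors deposited raw counts in 1 table of genes by libraries, with 6 columns. Per the study's methods, reads were trimmed with cutadapt and mapped to mm10 with HISAT2 and GENCODE M21. The submitters' processing notes name bcl2fastq 2.20, cutadapt 4.1, HISAT2 2.2.1 and HTSeq 2.0.2, and no strand setting. The kit and sequencer named by the labels differ from those in the methods.

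The test of the counts was that of edgeR 4.0.16 (R 4.3.3). Genes were filtered by filterByExpr, which left 15104, and libraries were scaled by TMM. The 2-sided quasi-likelihood F test had no replicate block and a Benjamini-Hochberg threshold of 0.05. The SE is the size of the log2 fold change over the square root of F. Log2 CPM used a prior count of 2. Exon lengths and positions are from GENCODE M21 (GRCm38), which held 32235 of the 32285 identifiers. Of 216 listed gene names 7 were matched by older symbols and 2 were not in the table. Alternatives were RLE or total counts as scaling, no filter or a stricter one, limma-voom (limma 3.58.1), DESeq2 1.42.0, a replicate block, a feeder covariate, no mitochondrial genes and leaving out each library. The fit was tested on simulated data.

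The 9 genes and the gene lists were chosen with earlier results of these data known. Genes named were the 9, the 2 highest per kb of each list, the cohesin partners and the 2 most alike of each of the 9. Outside this rule, Gm4969, Chpt1, Dmrt1 by library, Bcl6b, Pou5f1, Sall4, listed genes at 0 counts and listed genes whose groups did not overlap were named after their values were seen. Intervals on counts cover counting error only.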

Additional observations from a re-analysis of the deposited data

How the results depend on the processing

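None of the 9 genes passed the threshold in any alternative, and the count of all tested genes was 0 in each, leaving out each library included (0 to 0). Sycp1, Sycp2, Sycp3 and Hormad1 were lower in Space in all 15 alternatives, and the other 5 changed sign in 2 to 5 of them. Without Space replicate 2, Sycp2 was -0.0245 and Sycp3 -0.0433, beside -0.083 and -0.128 with it. Sycp2 was -0.136 without Ground replicate 2 and -0.0488 without Ground replicate 3, and Sycp3 was -0.207 without Space replicate 3. Left out singly, the following changed a sign. Without Ground replicate 1, Stra8 was 0.0104 and Rec8 -0.107. Without Ground replicate 2, Stra8 was 0.0177, Meioc -0.0192, Rec8 -0.0193 and Smc1b 0.0414. Without Space replicate 1, Stra8 was 0.0083, Meioc -0.072, Spo11 0.053 and Rec8 -0.169. With the feeder score as covariate, Stra8 was 0.038, Meioc -0.142, Spo11 0.197, Rec8 -0.26 and Smc1b 0.0104 (edgeR adjusted p from 0.9679 to 0.9946 over the 9). Total counts gave 0.0108 for Stra8. Leaving out each library in turn, so that 1 group had 2, gave log2 fold changes of -0.0938 to 0.0177 for Stra8, -0.0717 to 0.129 for Meioc, -0.533 to 0.0528 for Spo11, -0.169 to 0.235 for Rec8 and -0.106 to 0.0414 for Smc1b. The cause was not tested, and no value passed the threshold.

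With counts not divided by length, the ratio differences kept their signs. They were 0.00043 for Rec8 to Rad21, -0.0274 for Smc1b to Smc1a and -0.0578 for Stag3 to Stag1 plus Stag2. With single libraries left out, the ratio differences changed sign too. Rec8 to Rad21 was -0.0141 and -0.00906 without Ground replicate 1 or 2 and -0.0212 without Space replicate 1 (range -0.0212 to 0.025). Smc1b to Smc1a was 0.096 without Ground replicate 2, and 0.0215 and 0.0291 without Space replicate 1 or 3 (range -0.168 to 0.096). Stag3 to Stag1 plus Stag2 was 0.0331 without Ground replicate 2 and 0.0466 without Space replicate 1 (range -0.221 to 0.0466).

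The labels do not say what libraries with the same replicate number share. Over the 1000 most variable genes, their deviations from their own group's mean correlated at -0.483, 0.28 and -0.597 for replicates 1, 2 and 3. Ground-2 and Space-2 were thus alike, as in the correlations of all tested genes, and the other 2 same-number pairs were not. Ground-1 with Space-3 gave 0.633 and Ground-3 with Space-1 gave 0.602. No label ties those libraries, so no fit used that pairing. With the replicate block 0 genes passed, 63 of 15104 had an unadjusted p under 0.05 (92 without it), and no call on the 9 changed. Counting error was largest for Spo11 among the 9 (9.68%), with 76 counts in its lowest library. Its spread over the 6 libraries (29.3%) was still 3.03 times that error.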
